A study of Arabidopsis thaliana with 104 samples.

Results

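The 50 genes described here carry inorganic nitrogen in Arabidopsis thaliana from its uptake to the first amino acids, and were chosen as a fixed list of loci out of the 27206 in a table of read counts. By role they are 12 nitrate transport genes, 3 nitrate reduction genes, 14 nitrate regulators, 5 genes that supply reductant or cofactor to that reduction, 5 ammonium transporters, 8 genes of ammonium assimilation and 3 of CEP peptide signalling. Polyadenylated RNA was sequenced from whole seedlings of the accession Col-0 and of the mutants phr1 and phr1 phl1. PHR1 and PHL1 are related transcription factors that switch on genes of phosphate (Pi) starvation. Every seedling germinated for 7 days on 1 mM Pi with 0.5% sucrose, and all groups had days of 9 h light and 15 h dark. It then spent 12 days on sucrose-free plates with 625 µM Pi (high Pi) or 50 µM Pi (low Pi), either without bacteria or with a synthetic community of bacteria (SynCom). The 12 groups, 3 genotypes by 2 Pi levels by 2 bacterial treatments, were grown in 5 experiments, A to E. Col-0 and phr1 had 10 libraries per group, a pair from every experiment, whereas the double mutant, grown in C, D and E, had 6 per group. The mutant alleles and the composition of the community are not given in the labels, and shoots and roots were not separated.

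Plants take up nitrate through NRT1 and NRT2 carriers, and NRT2 proteins work with the partner protein NAR2.1. Nitrate is reduced to nitrite by nitrate reductase (NIA1, NIA2) in the cytosol and to ammonium by nitrite reductase (NIR1) in plastids. Ammonium, also taken up directly by AMT carriers, enters glutamine through glutamine synthetase (GLN genes), glutamate through glutamate synthase (GLU1, GLT1) and asparagine through asparagine synthetase (ASN1, ASN2). The nitrate sensor NLP7 switches this programme on, whereas proteins of the HRS1 and HHO family, the LBD37 to LBD39 proteins and the BTB scaffold proteins BT1 and BT2 act as brakes on it. Genes of the HRS1 and HHO family are known from other work as direct targets of PHR1 and as repressors of NRT2 genes, which ties nitrate uptake to Pi supply.

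Total counts ran from 955174 to 9550846 per library. CPM is a count per 1000000 counts of the scaled library. PHR1 averaged 68.0 ± 9.92 CPM over the 40 Col-0 libraries (SD), against 37.0 ± 9.48 CPM over the 40 phr1 libraries and 38.6 ± 9.24 CPM over the 24 of the double mutant. PHL1 was higher in phr1 phl1, at 42.0 to 972 CPM per library against 6.66 to 22.8 CPM in Col-0, and a read outside a disrupted region does not test whether a functional product is made. The summed level of 12 shoot markers (photosynthesis genes) had a median of 89100 CPM in Col-0 at high Pi with SynCom, 77000 at low Pi without bacteria and 45000 at low Pi with SynCom. Over those groups, the sum of 12 root markers had medians of 1020, 1470 and 2080 CPM. That sum is nearly all PYK10 (median over all libraries 1030 CPM, the next highest being SCR at 32.0 CPM), and none of the 24 markers was at 0 throughout a group. Between low and high Pi with SynCom, 12 of 12 shoot markers fell in Col-0, 9 of 12 in phr1 and 5 of 12 in phr1 phl1, while 8, 1 and 2 of the 12 root markers rose and 1 in each genotype fell. In Col-0 PYK10 rose by 1.26 ± 0.16 (adjusted p = 5.26e-10) and the root aquaporin gene TIP2;3 fell by 1.11 ± 0.23 on the log2 scale (adjusted p = 5.04e-05). In whole seedlings, fewer cells of a type and less RNA per cell cannot be told apart. The pollen gene CYP703A2, which a seedling should lack, had no count in any library, and the seed genes AT2S1 and CRA1 were at 0 in 98 and 92 libraries and reached at most 0.675 and 0.236 CPM. A set of 4 libraries stood apart by a large residual spread or a low total. Among them was 1 Col-0 library at low Pi with SynCom (experiment D, replicate 2), whose shoot markers summed to 3000 CPM.

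Of the 50 genes, 46 had enough counts to be tested. NRT2.2, NRT2.4, NRT2.7 and AMT1;5 did not pass, and no group averaged as much as 1 CPM for any of them. Per kilobase of exon, the strongest nitrate transport genes in Col-0 at high Pi without bacteria were NRT1.5, which loads nitrate into the xylem, at a mean of 65.2 RPKM, the vacuolar exchanger CLCa at 60.3 RPKM and NAR2.1 at 56.5 RPKM. NRT2.1, the main high-affinity root carrier, stood at 38.6 RPKM and the dual-affinity carrier NRT1.1 at 30.1 RPKM. NIA2 was above NIA1, at 142 against 41.9 RPKM. In assimilation, ASN1 at 621 RPKM and the plastid glutamine synthetase GLN2 at 574 RPKM led, and the cytosolic GLN1;4 was lowest at 4.6 RPKM.

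Most calls among the members came from comparisons of seedlings grown at low Pi with SynCom. Between low and high Pi with SynCom, 22 of 46 (47.8%) passed the test in Col-0, a share close to the 49.4% of all 18926 genes tested that passed. The 13 that rose and 9 that fell stand beside 27.2% and 22.2% of all genes. In phr1, 13 of 46 (28.3%) passed against 23.8% of all genes, 5 higher and 8 lower against 13% and 10.8%. In phr1 phl1, 16 (34.8%) passed against 19.2%, 10 higher and 6 lower against 10.4% and 8.87%. Their median log2 fold was -0.01, -0.07 and 0.19 in the 3 genotypes, against 0.05, 0.02 and 0.01 over all genes, with members called in both directions. Without experiment C or D the count in phr1 phl1 was 4 or 3, and without E it was 23. These tests are edgeR quasi-likelihood F tests adjusted by Benjamini-Hochberg over all genes, with a threshold of 0.05, and errors of folds are standard errors. The 2 libraries of a group in 1 experiment share that experiment, so these errors and p-values may be too small.

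**Figure D1:**
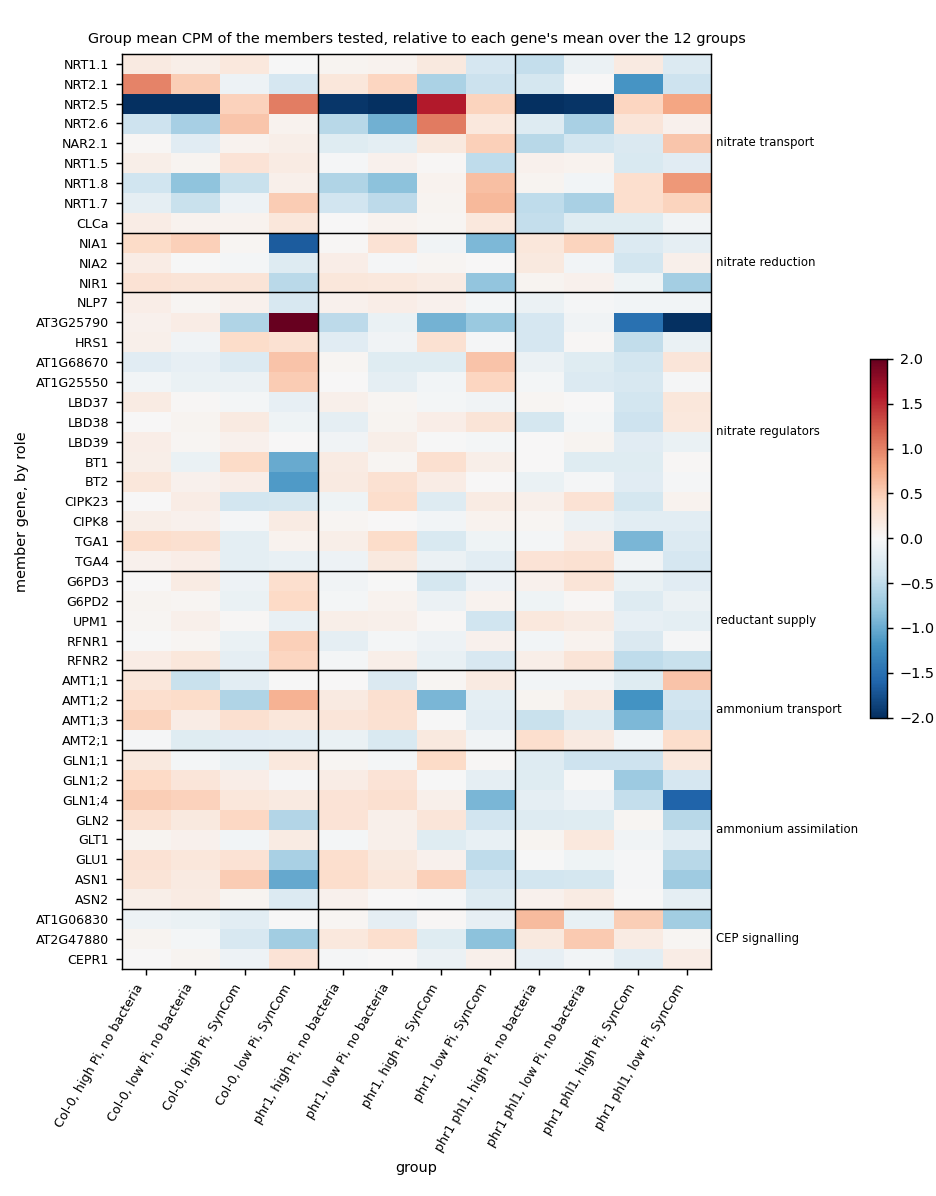
Mean CPM of the 46 members tested (rows, by role) in the 12 groups (columns), as log2 of the group mean over the gene's mean of the 12 groups, with colours limited to -2 to 2. In the low Pi columns with SynCom, AT3G25790 is dark red in Col-0 (19.8 CPM) and dark blue in phr1 phl1 (1.18 CPM), and NIA1 is blue in Col-0 (32.1 CPM). NRT2.5 is at the limit in the groups without bacteria, where its mean is 0.168 CPM or less and is 0 in phr1 at low Pi.

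Without bacteria, low Pi moved no member past the threshold. The edgeR test called 0 of 46 in Col-0, phr1 and phr1 phl1, where 0.0106%, 0% and 0% of all genes passed. At an unadjusted p under 0.05 there were 1, 4 and 2 members, and DESeq2 called 0, 1 and 0. In Col-0 the ammonium carrier AMT1;1 had the one unadjusted p under 0.05, with a log2 fold of -0.66 ± 0.19 (adjusted p = 0.904). In phr1 the smallest edgeR p among the members was that of the regulator CIPK23 (unadjusted p = 7.89e-06, adjusted p = 0.149). Its log2 fold there was 0.43 ± 0.09, with the same sign in 5 of 5 experiments.

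The SynCom changed many members at low Pi and few at high Pi. At low Pi, 24 of 46 members differed between seedlings with and without it in Col-0 (52.2%, against 43.2% of all genes), 9 higher and 15 lower against 23.8% and 19.4%. In phr1 there were 20 (43.5% against 26.2%), 7 higher and 13 lower against 14.4% and 11.7%. In phr1 phl1 there were 13 (28.3% against 13.6%), 5 higher and 8 lower against 8.06% and 5.58%. At high Pi the SynCom changed 5, 3 and 5 members in the same order of genotypes, where 3.67%, 4.67% and 2.25% of all genes passed. The interaction of Pi with SynCom, which asks whether the Pi effect differs with bacteria, passed for 18 members in Col-0 (29.2% of all genes), 6 in phr1 (5.52%) and 4 in phr1 phl1 (4.19%). Without experiment C or D the SynCom called 7 or 4 members in phr1 phl1 at low Pi. At high Pi it called 3, 3 and 1 in Col-0 without B, D or E, 1 in phr1 without B or E, and 0 and 1 in phr1 phl1 without C or D. The low Pi groups with SynCom enter both the low Pi contrast and the interaction, which are therefore not independent. For the interaction in phr1 the count was 3 without C, and in phr1 phl1 it was 2 without A, 0 without C or D and 7 without E.

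The mutants differed from Col-0 in these genes at low Pi with SynCom. There, 16 members differed in phr1 (25.1% of all genes), 6 higher and 10 lower against 11.7% and 13.4%, and 22 in phr1 phl1 (36%), 13 higher and 9 lower against 17.2% and 18.8%. In the same comparison no root marker was higher, and 6 of 12 were lower in phr1 and 5 of 12 in phr1 phl1, with median log2 folds of -0.6 and -0.61. Of the 12 shoot markers 1 was higher and 0 lower in each mutant, and the part of either list in the members' results was not tested. The phr1 count was 9 and 6 without experiment A or B, and the phr1 phl1 count was 10 without D. In the other 3 conditions the edgeR test called 0 members. All genes passed there at 0.0951% (phr1) and 0.106% (phr1 phl1) at high Pi with SynCom, 0.0581% and 0.0634% at low Pi without bacteria, and 0.0581% and 0.0793% at high Pi without bacteria. Members with an unadjusted p under 0.05 numbered 4 and 14, 2 and 4, and 1 and 8 in the same order, and DESeq2 also called 0 in each. With SynCom, the Pi response itself differed from that of Col-0 for 5 members in phr1 (10.9% against 2.67% of all genes) and 13 in phr1 phl1 (28.3% against 16.3%). For phr1 phl1 this sets responses from C, D and E against a Col-0 response over A to E. Fewer phr1 phl1 calls were made with C, D and E alone. Without experiment A, B or D the phr1 count was 0 and without E it was 12, and the phr1 phl1 count was 6 without C, 5 without D and 20 without E.

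Among the 14 regulators, the locus AT3G25790 of the HRS1 and HHO family gave the largest fold of any member in Col-0 between low and high Pi with SynCom. Its promoter is shown with those of its relatives because they differ in matches to the P1BS element, the site PHR1 binds. The sequences are the 250 bases before the annotated gene start, from RefSeq on TAIR10.1, and the files themselves hold no coordinates. Capitals mark P1BS, searched as GNATATNC on both strands. AT3G25790 (chr3:9412802-9413051, plus strand) held 3 matches, 194, 138 and 73 bases before the start. HRS1 (chr1:4556628-4556877, plus strand) held 1 at 236 bases, AT1G25550 (chr1:8976076-8976325, plus strand) held 1 at 184 bases, and AT1G68670 (chr1:25781551-25781800, plus strand) held none.
AT3G25790: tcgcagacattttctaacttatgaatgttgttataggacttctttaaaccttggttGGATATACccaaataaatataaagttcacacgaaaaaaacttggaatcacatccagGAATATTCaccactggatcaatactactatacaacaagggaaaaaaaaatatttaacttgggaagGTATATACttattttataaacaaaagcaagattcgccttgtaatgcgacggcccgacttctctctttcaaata
HRS1: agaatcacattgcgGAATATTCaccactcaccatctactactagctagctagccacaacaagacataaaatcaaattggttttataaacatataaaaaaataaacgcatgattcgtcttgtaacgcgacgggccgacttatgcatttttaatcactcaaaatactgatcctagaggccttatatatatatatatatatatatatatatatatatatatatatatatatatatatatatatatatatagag
AT1G25550: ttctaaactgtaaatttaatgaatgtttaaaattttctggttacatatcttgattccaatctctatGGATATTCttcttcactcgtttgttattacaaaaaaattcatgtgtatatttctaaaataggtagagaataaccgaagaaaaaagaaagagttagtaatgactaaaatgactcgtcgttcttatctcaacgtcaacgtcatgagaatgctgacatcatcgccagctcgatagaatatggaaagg
AT1G68670: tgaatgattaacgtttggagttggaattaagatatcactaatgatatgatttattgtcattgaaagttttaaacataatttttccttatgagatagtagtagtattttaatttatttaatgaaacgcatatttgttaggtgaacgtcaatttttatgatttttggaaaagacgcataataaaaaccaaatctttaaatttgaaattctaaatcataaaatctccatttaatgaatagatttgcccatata
Over the module, 5 of 50 promoters (10%) held a P1BS match, against 1498 of 27443 promoters of the same length (5.46%), and the others were those of NRT2.4 and BT1. The letters GAATC, reported as a binding site of the HRS1 and HHO family, occurred on either strand in 28 of 50 (56%) against 38.8% of all promoters. A match is a description of the letters in the window and not a measured binding site.

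AT3G25790 had 0.934, 2.45 and 7.56 CPM (lowest, median and highest of 10 libraries) in Col-0 at high Pi with SynCom, and 3.58, 15.0 and 48.4 CPM at low Pi with SynCom. The low Pi libraries were mostly above the high Pi ones, and the ranges overlapped. It rose by 2.68 ± 0.34 on the log2 scale (adjusted p = 3.22e-10). Within experiments A to D its log2 fold was 2.27, 2.19, 2.75 and 4.55, and in E it was 0.18. In phr1 the low Pi values ran from 0.248 to 9.09 CPM with a mean of 2.9 ± 2.78 (SD, n = 10), and the log2 fold was 0.09 ± 0.39 (adjusted p = 0.903). Experiments differed in sign in phr1, where the Pi by SynCom interaction was -1.51, -2.02, 0.53, 0.76 and 1.48 in A to E. In Col-0 that interaction was 1.65, 1.9, 2.23, 4.77 and 0.52. In phr1 phl1 the low Pi values were 0, 0.65 and 2.9 CPM, with a fold of -0.37 ± 0.73 (adjusted p = 0.781). The 6 double mutant libraries all lay below the 10 Col-0 libraries of that condition. AT3G25790 was lower than in Col-0 there by a log2 fold of -2.85 ± 0.35 in phr1 (adjusted p = 6.26e-10) and -4.14 ± 0.52 in phr1 phl1 (adjusted p = 1.04e-09). Within experiment E the phr1 value was of the other sign, at 1.06. Root markers were also lower there, 6 of 12 in phr1 and 5 of 12 in phr1 phl1, and their part was not tested. The difference between genotypes in the Pi response was -2.58 ± 0.52 for phr1 (adjusted p = 0.00179) and -3.05 ± 0.82 for phr1 phl1 (adjusted p = 0.00618). The first was lost without experiment A, B or D (adjusted p 0.0527 to 0.0848) and the second without D (0.152). At low Pi the SynCom raised AT3G25790 in Col-0 by 2.01 ± 0.32 (adjusted p = 2.47e-07) and lowered it in phr1 phl1, at -1.91 ± 0.61 (adjusted p = 0.0244), a call lost without C or D (0.171 to 0.202).

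The relatives of AT3G25790 had smaller folds. AT1G68670 rose in the 3 genotypes between low and high Pi with SynCom, by 0.82 ± 0.13 in Col-0 (adjusted p = 3.73e-07), 0.81 ± 0.13 in phr1 (adjusted p = 1.98e-06) and 0.59 ± 0.18 in phr1 phl1 (adjusted p = 0.0117, lost without C or D at 0.165 to 0.166). Its Col-0 values were 35.0, 55.1 and 75.2 CPM at high Pi and 49.1, 100 and 178 CPM at low Pi. AT1G25550 rose by 0.6 ± 0.13 in Col-0 (adjusted p = 7.88e-05) and 0.47 ± 0.13 in phr1 (adjusted p = 0.00436, lost without C at 0.121), and its fold in phr1 phl1 was 0.3 ± 0.17 (adjusted p = 0.224). Against Col-0 at low Pi with SynCom, AT1G25550 was lower in phr1 phl1, at -0.42 ± 0.16 (adjusted p = 0.0283, lost without B or D at 0.0963 to 0.265), and did not pass in phr1, at -0.07 ± 0.13 (adjusted p = 0.757). HRS1 itself passed in none of these, with folds of 0.03 ± 0.19, -0.23 ± 0.19 and 0.43 ± 0.26. The family therefore held 1 gene with a genotype difference in its Pi response by the interaction test and 3 without a call in that test.

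**Figure D2:**
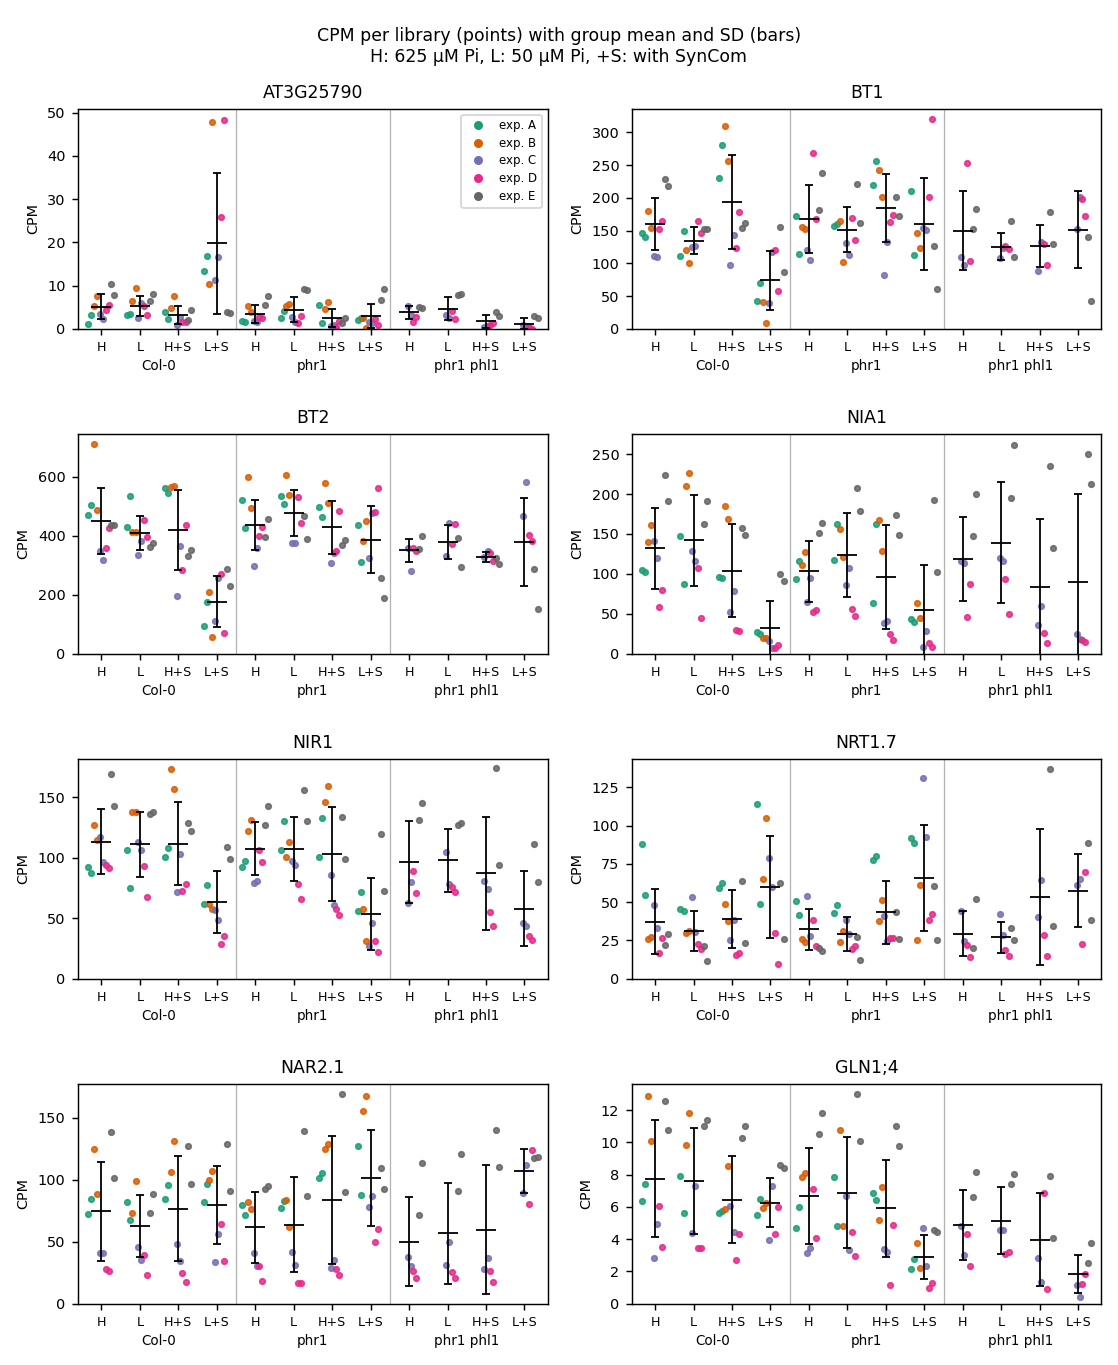
CPM per library (points, coloured by experiment) for 8 members in the 12 groups, on linear axes, with bars for the group mean and SD. AT3G25790 runs from 3.58 to 48.4 CPM in Col-0 on low Pi with SynCom and no higher than 2.9 CPM in phr1 phl1, and BT2 runs from 55.9 to 286 CPM in the same Col-0 group.

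BT1 and BT2, scaffold proteins that restrain nitrate uptake genes, fell in Col-0 and passed the test in neither mutant. BT2 had 196, 401 and 568 CPM in Col-0 at high Pi with SynCom and 55.9, 193 and 286 CPM at low Pi with SynCom. Without bacteria at low Pi it had 333, 403 and 535 CPM, so the 10 libraries with SynCom all lay below the 10 without it. Low Pi with SynCom lowered BT2 by a log2 fold of -1.19 ± 0.18 (adjusted p = 3.36e-08) and BT1 by -1.43 ± 0.24 (adjusted p = 3.87e-07), with the same sign in the 5 experiments. In phr1 the folds were -0.14 ± 0.17 and -0.2 ± 0.23, and in phr1 phl1 0.21 ± 0.23 and 0.29 ± 0.3, none past the threshold. At low Pi with SynCom, BT2 was higher than in Col-0 by 1.09 ± 0.18 in phr1 (adjusted p = 2.33e-06) and 1.18 ± 0.2 in phr1 phl1 (adjusted p = 2.09e-06). The Pi response of BT2 differed from that of Col-0 by 1.05 ± 0.25 in phr1 (adjusted p = 0.0106, lost without A, B or D at 0.109 to 0.165) and 1.4 ± 0.29 in phr1 phl1 (adjusted p = 0.000374). That of BT1 differed by 1.22 ± 0.32 (adjusted p = 0.0254, lost without A, B, C or D at 0.0755 to 0.204) and 1.72 ± 0.38 (adjusted p = 0.000838). The phr1 phl1 differences set responses from experiments C, D and E against a Col-0 response over A to E. In Col-0 the Pi by SynCom interaction of BT1 was -2.05 in A and -2.9 in B. In C, D and E it was -0.84, -0.73 and 0.17. That of BT2 was -2.04 and -1.54 in A and B, and -0.73, -1.18 and -0.16 in C, D and E. Experiment E was again the exception, since BT2 in phr1 against Col-0 was -0.21 there.

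LBD37 and LBD38, repressors of nitrogen-responsive genes, rose in phr1 phl1 alone among the calls for low against high Pi with SynCom. LBD37 had 64.3, 78.0 and 107 CPM in phr1 phl1 at high Pi and 102, 125 and 143 CPM at low Pi. It rose by 0.59 ± 0.11 (adjusted p = 3.22e-05), against -0.11 ± 0.08 in Col-0, and the difference was 0.7 ± 0.13 (adjusted p = 0.000118). At high Pi the SynCom lowered LBD37 in phr1 phl1 (adjusted p = 0.0141, lost without C or D at 0.0941 to 0.259). At low Pi the SynCom raised 0 of the 14 regulators in phr1 phl1. Without bacteria the Pi fold of LBD37 there was -0.06 ± 0.11. LBD38 rose by 0.66 ± 0.16 (adjusted p = 0.00138, lost without C or D at 0.0775 to 0.136), and its difference from Col-0 was 0.87 ± 0.2 (adjusted p = 0.00105). CIPK23, a kinase that phosphorylates nitrate and ammonium carriers, was higher in the mutants at low Pi with SynCom, by 0.52 ± 0.09 in phr1 (adjusted p = 1.58e-05) and 0.44 ± 0.11 in phr1 phl1 (adjusted p = 0.000986). The 6 double mutant libraries (53.7 to 63.4 CPM) lay above the 10 of Col-0 (34.1 to 53.6 CPM). NLP7 fell in Col-0 by 0.44 ± 0.1 on the log2 scale (adjusted p = 9.24e-05), and LBD39 and CIPK8 passed in none of the 3 genotypes.

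Of the 3 nitrate reduction genes, NIA1 and NIR1 fell in Col-0 and phr1 at low Pi with SynCom, and NIR1 alone passed in phr1 phl1. NIA1 had 28.8, 95.7 and 185 CPM in Col-0 at high Pi with SynCom and 6.64, 19.2 and 100 CPM at low Pi. The ranges overlapped, and the fold was negative in each of the 5 experiments, from -3.22 in B to -0.69 in E. NIA1 fell by 1.88 ± 0.26 in Col-0 (adjusted p = 2.87e-09) and by 0.97 ± 0.25 in phr1 (adjusted p = 0.00194), and its fold in phr1 phl1 was -0.15 ± 0.32 (adjusted p = 0.801). The phr1 phl1 response differed from that of Col-0 by 1.73 ± 0.41 (adjusted p = 0.00181). NIR1 fell in the 3 genotypes, by 0.84 ± 0.14 (adjusted p = 2.78e-07), by 0.97 ± 0.14 (adjusted p = 5.26e-08) and by 0.61 ± 0.18 (adjusted p = 0.0116, lost without C or D at 0.0795 to 0.187). NIA2, the more abundant nitrate reductase, did not pass, with folds of -0.06 ± 0.2, 0.11 ± 0.2 and 0.59 ± 0.26. With the SynCom at low Pi NIA1 fell by 2.5 ± 0.26 in Col-0 (adjusted p = 2.22e-13), by 1.49 ± 0.25 in phr1 (adjusted p = 1.35e-06) and by 1.26 ± 0.32 in phr1 phl1 (adjusted p = 0.00398, lost without C or D at 0.186 to 0.22). The summed shoot markers in Col-0 ran from 65700 to 99100 CPM at high Pi with SynCom and from 3000 to 68400 CPM at low Pi with SynCom, and their part in these falls was not tested.

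**Figure D3:**
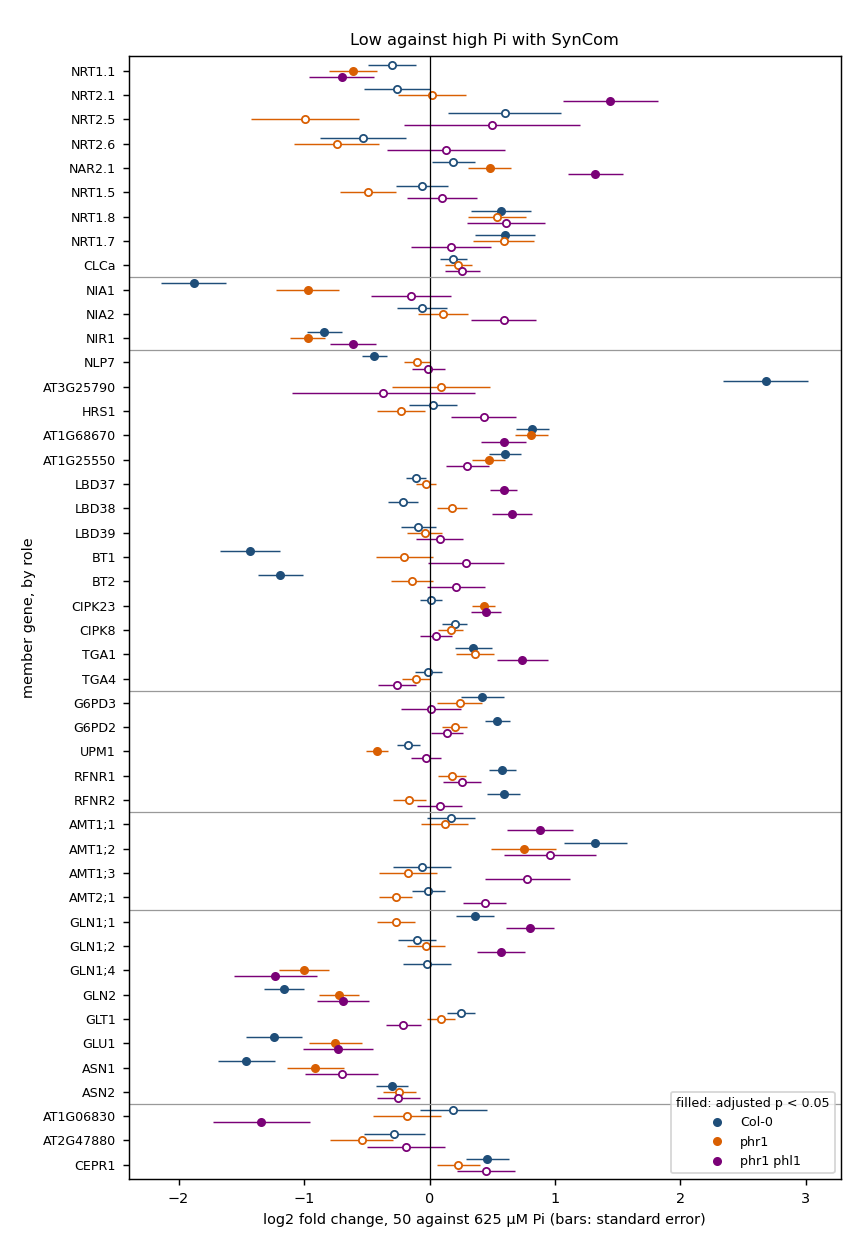
Log2 fold of the members tested between low and high Pi with SynCom in the 3 genotypes, with standard errors. AT3G25790 stands at 2.68 in Col-0 and near 0 in phr1 (0.09), whereas NIR1 lies below 0 in the 3 genotypes (-0.84, -0.97 and -0.61).

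Nitrate carriers moved little with Pi in Col-0, where 2 of 9 tested passed (22.2%, against 49.4% of all genes), both higher. These were NRT1.8, which withdraws nitrate from the xylem, at 0.57 ± 0.24 (adjusted p = 0.0418, lost without A, B, C or D at 0.0527 to 0.26), and NRT1.7, which loads it into the phloem, at 0.6 ± 0.24 (adjusted p = 0.0322, lost without A, B, C or D at 0.051 to 0.188). NRT2.1 and its partner NAR2.1 rose with low Pi in phr1 phl1. NAR2.1 had 17.0, 32.4 and 140 CPM at high Pi with SynCom and 80.3, 114 and 124 CPM at low Pi, so the high Pi libraries were widely spread and the low Pi ones were not. It rose by 1.32 ± 0.22 (adjusted p = 1.13e-05) and NRT2.1 by 1.44 ± 0.38 (adjusted p = 0.00357, lost without C or D at 0.158 to 0.181). In Col-0 the folds were 0.19 ± 0.17 and -0.26 ± 0.26, and the differences in response were 1.12 ± 0.28 (adjusted p = 0.00277, lost without C or D at 0.0571 to 0.087) and 1.7 ± 0.46 (adjusted p = 0.00608, lost without C or D at 0.11 to 0.196). In experiment E both folds in phr1 phl1 were near 0, at -0.09 and 0.05. The rise was not particular to phr1 phl1, since NAR2.1 also rose in phr1 (adjusted p = 0.0269, lost without B, C or D at 0.0508 to 0.372). NRT1.1 fell in phr1 and phr1 phl1, by 0.61 ± 0.19 (adjusted p = 0.0136, lost without B, C or D at 0.07 to 0.0989) and by 0.7 ± 0.26 (adjusted p = 0.0408, lost without C or D at 0.287 to 0.443).

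The SynCom was accompanied by more mRNA of NRT2.5, NRT1.8 and NRT1.7 at low Pi in the 3 genotypes. NRT2.5, a high-affinity carrier of long nitrogen starvation, had 0 counts over the 10 phr1 libraries at low Pi without bacteria and 45 counts with SynCom. Against a floor of 3 counts over the group this is 15.7-fold higher, from pooled counts and without the spread between libraries. In Col-0 NRT2.5 summed to 9 counts without bacteria and 78 with SynCom (log2 fold 2.82 ± 0.55, adjusted p = 2.04e-05), and in phr1 phl1 to 1 and 19 (adjusted p = 0.00902, lost without C or D at 0.102 to 0.115). Its level stayed low, with a highest library of 5.7 CPM among the groups with SynCom. NRT2.5 had enough counts to be tested only through libraries with SynCom, where it was higher. Its calls in this comparison are therefore not independent of that filter. NRT1.8 had 9.74, 17.7 and 21.9 CPM in phr1 at low Pi without bacteria and 25.4, 34.0 and 127 CPM with SynCom, with no overlap. It rose by 1.39 ± 0.24 in phr1 (adjusted p = 3.28e-06) and 0.95 ± 0.24 in Col-0 (adjusted p = 0.000848). In phr1 phl1 NRT1.8 rose by 0.95 ± 0.31 (adjusted p = 0.0272, lost without D or E at 0.0811 to 0.449). NRT1.7 rose by 0.95 ± 0.24 in Col-0 (adjusted p = 0.000957), 1.15 ± 0.25 in phr1 (adjusted p = 0.000169) and 1.13 ± 0.33 in phr1 phl1 (adjusted p = 0.0121, lost without C or D at 0.0787 to 0.173). NRT2.1 went the other way and fell in Col-0 by 0.86 ± 0.26 (adjusted p = 0.00433, lost without B or C at 0.0501 to 0.065). It also fell with SynCom at high Pi in Col-0 (adjusted p = 0.0286, lost without B, D or E at 0.124 to 0.32). Its Pi by SynCom interaction in Col-0 was 0.01 ± 0.37. In phr1 at low Pi NRT2.1 passed too (adjusted p = 0.0191, lost without C or E at 0.0886 to 0.182). NRT2.1 and NRT2.2 share part of their sequence, and the submitters' notes do not say how reads that match both were counted. At low Pi the SynCom lowered NIA1, NIR1, UPM1 and TGA4 in the 3 genotypes. The UPM1 call was lost in Col-0 without B, C, D or E (adjusted p 0.0516 to 0.0776). In phr1 phl1 it was lost without C, D or E (0.104 to 0.182). The TGA4 call was lost without B in Col-0 (0.0835) and without D in phr1 phl1 (0.0513). In this comparison 4 of 12 root markers rose and 1 fell in Col-0, 1 rose and 3 fell in phr1, and 0 rose and 3 fell in phr1 phl1. Of the 12 shoot markers 12, 8 and 0 fell in the same order of genotypes, and the part of either list was not tested.

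**Figure D4:**
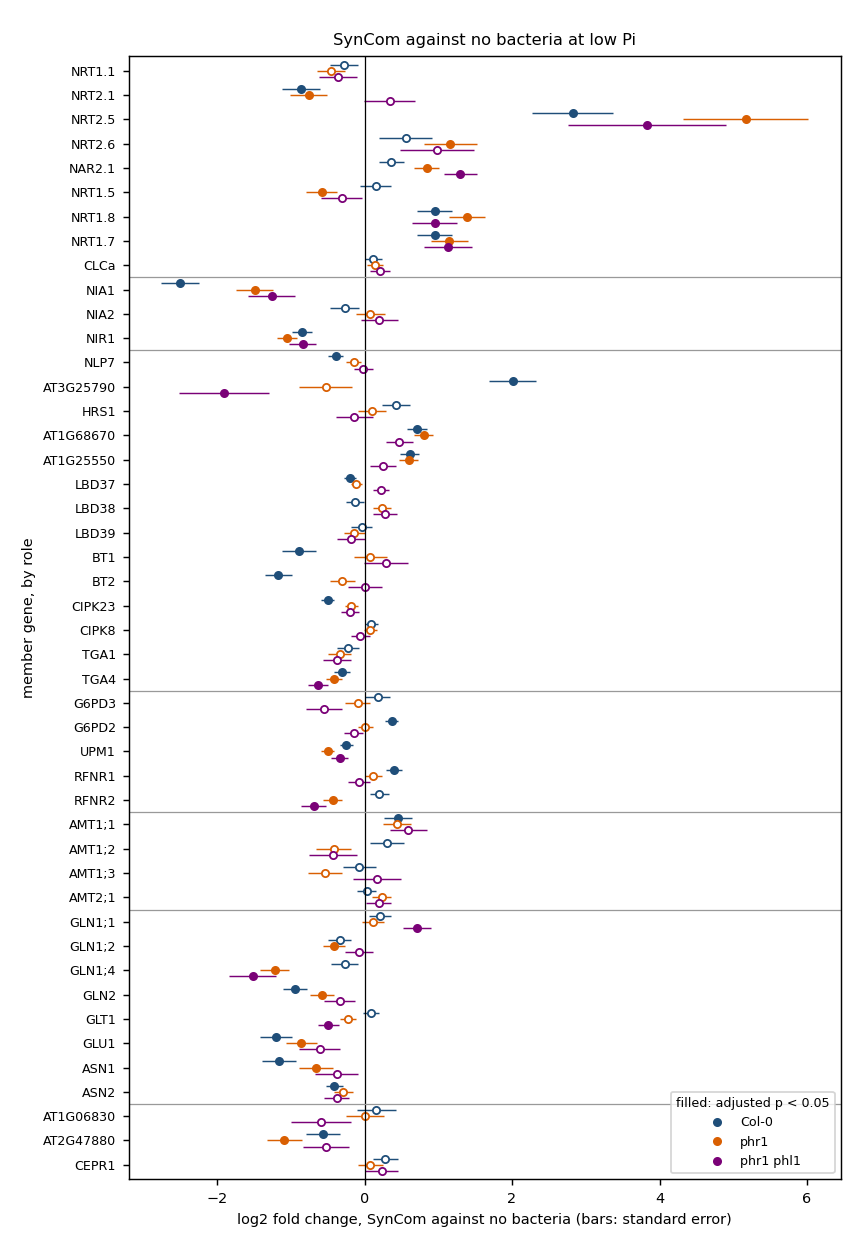
Log2 fold of the members tested between SynCom and no bacteria at low Pi in the 3 genotypes, with standard errors. NRT1.7 lies to the right of 0 in each (0.95, 1.15 and 1.13) and NIA1 to the left (-2.5, -1.49 and -1.26). The fitted NRT2.5 folds of the mutants rest on 0 and 1 counts without bacteria and carry no size.

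The genes that supply reductant rose in Col-0 between low and high Pi with SynCom, 4 of 5, where 27.2% of all genes rose. G6PD2 and G6PD3, plastid enzymes that make NADPH, rose by 0.54 ± 0.1 (adjusted p = 2.16e-06) and 0.42 ± 0.17 (adjusted p = 0.0377, lost without A or B at 0.12 to 0.388). Without the 4 libraries that stood apart G6PD3 did not pass (0.32, adjusted p = 0.114), which leaves 3 of 5. The ferredoxin reductases RFNR1 and RFNR2, which pass electrons of that NADPH through ferredoxin to nitrite reductase in roots, rose by 0.58 ± 0.11 (adjusted p = 1.17e-05) and 0.59 ± 0.13 (adjusted p = 7.31e-05). No supply gene rose in the mutants. UPM1, which makes the sirohaem of nitrite reductase, fell in phr1 by 0.42 ± 0.09 (adjusted p = 0.000193). RFNR2 had 37.5, 46.9 and 83.4 CPM in Col-0 on low Pi with SynCom and 22.8, 30.0 and 34.0 CPM in phr1 phl1, which did not overlap. It was lower by a log2 fold of -0.84 ± 0.16 in phr1 phl1 (adjusted p = 1.89e-05) and -0.73 ± 0.13 in phr1 (adjusted p = 1.42e-05). Root markers moved the same way, 8 of 12 higher in the Col-0 Pi comparison and 5 and 6 of 12 lower in phr1 phl1 and phr1 in this one, and their part in these results was not tested.

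Of the ammonium carriers, AMT1;2, a root carrier, rose with low Pi and SynCom. It had 4.6, 11.7 and 20.3 CPM in Col-0 at high Pi with SynCom and 9.32, 29.3 and 72.6 CPM at low Pi. AMT1;2 rose by 1.32 ± 0.25 in Col-0 (adjusted p = 5.37e-06), positive in 5 of 5 experiments, and by 0.75 ± 0.26 in phr1 (adjusted p = 0.0234, lost without C or D at 0.142 to 0.203). It was the one member that the SynCom lowered at high Pi in the 3 genotypes, with log2 folds of -0.91 ± 0.25 (adjusted p = 0.0173, lost without C, D or E at 0.0543 to 0.263), -1.08 ± 0.25 (adjusted p = 0.00256) and -1.33 ± 0.35 (adjusted p = 0.0224, lost without C or D at 0.156 to 0.169). There 3, 2 and 2 of 12 root markers fell and 0, 1 and 0 rose in the same order of genotypes, with median folds of -0.31, -0.34 and -0.49, and their part in this fall was not tested. AMT1;1 rose in phr1 phl1 by 0.88 ± 0.26 (adjusted p = 0.0103, lost without C or D at 0.15 to 0.456). Nearly all of its exon length (98.4%) overlaps an antisense gene, and the libraries carry no strand, so reads of the pair cannot be told apart. Between low and high Pi with SynCom 8 of 12 root markers rose in Col-0, and their part in the AMT1;2 result was not tested.

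Ammonium assimilation divided by enzyme. GLN2, the glutamine synthetase of leaf plastids, and GLU1, its partner glutamate synthase, fell in the 3 genotypes between low and high Pi with SynCom. GLN2 had 724, 1410 and 1880 CPM in Col-0 at high Pi and 55.7, 519 and 1410 CPM at low Pi. It fell by 1.16 ± 0.16 in Col-0 (adjusted p = 6.62e-09), by 0.72 ± 0.16 in phr1 (adjusted p = 0.000457) and by 0.69 ± 0.21 in phr1 phl1 (adjusted p = 0.0135, lost without C at 0.366). GLU1 fell by 1.24 ± 0.22 (adjusted p = 1.42e-06), by 0.75 ± 0.21 (adjusted p = 0.00583, lost without C at 0.0772) and by 0.73 ± 0.28 (adjusted p = 0.049, lost without A, B, C or D at 0.0625 to 0.486). ASN1, which makes asparagine in the dark, fell in Col-0 by 1.46 ± 0.23 (adjusted p = 1.24e-07) and in phr1 by 0.91 ± 0.23 (adjusted p = 0.00152). In experiment E the Col-0 folds of GLN2, GLU1 and ASN1 were -0.07, 0.11 and -0.28. Without the 4 libraries that stood apart, the Col-0 folds were -1.03, -1.09 and -1.32. In this comparison 12 of 12 shoot markers fell in Col-0, and their part in these falls was not tested.

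The cytosolic synthetases moved in other directions. GLN1;1 rose in Col-0 by 0.36 ± 0.15 (adjusted p = 0.0357, lost without A, C or D at 0.0654 to 0.26) and in phr1 phl1 by 0.8 ± 0.19 (adjusted p = 0.00169, lost without D at 0.222). GLN1;4 had a log2 fold of -0.02 ± 0.19 in Col-0 (adjusted p = 0.958) and fell in the mutants, by 1 ± 0.2 in phr1 (adjusted p = 0.000109) and by 1.23 ± 0.33 in phr1 phl1 (adjusted p = 0.00404, lost without D at 0.106). At low Pi with SynCom GLN1;4 had 3.92, 6.11 and 8.6 CPM in Col-0, 0.96, 2.56 and 4.67 CPM in phr1, and 0.419, 1.52 and 3.73 CPM in phr1 phl1, whose libraries all lay below those of Col-0. It was lower than in Col-0 by a log2 fold of -1.1 ± 0.2 (adjusted p = 2.51e-05) and -1.72 ± 0.29 (adjusted p = 1.48e-06). In that comparison 6 of 12 root markers were lower in phr1 and 5 of 12 in phr1 phl1, and their part was not tested. The Pi response of GLN1;4 differed from that of Col-0 by -0.98 ± 0.28 (adjusted p = 0.0377, lost without A, B or D at 0.123 to 0.292) and -1.22 ± 0.38 (adjusted p = 0.0178, lost without C or D at 0.0511 to 0.197).

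In CEP signalling, by which nitrogen-starved roots call on the shoot, the receptor gene CEPR1 rose in Col-0 by 0.46 ± 0.17 (adjusted p = 0.0229, lost without B, C or D at 0.0546 to 0.142). The glutaredoxin locus AT1G06830 fell in phr1 phl1 by 1.34 ± 0.39 (adjusted p = 0.00807, lost without C or D at 0.0841 to 0.127), and AT2G47880 passed for Pi in no genotype. AT2G47880 fell with SynCom at low Pi, by 1.09 ± 0.24 in phr1 (adjusted p = 0.00023) and by 0.56 ± 0.23 in Col-0 (adjusted p = 0.0459, lost without A or D at 0.183 to 0.198). A gene on the opposite strand overlaps 36% of the exon length of AT2G47880, and the libraries carry no strand.

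**Figure D5:**
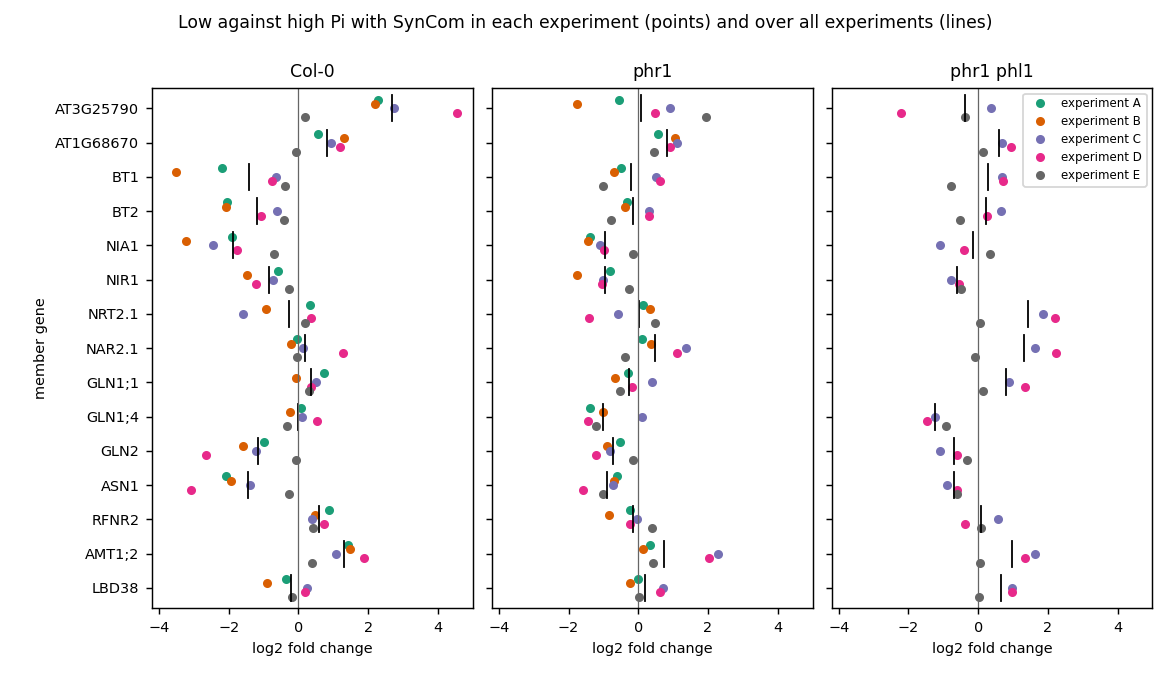
Log2 fold between low and high Pi with SynCom within each experiment (points) and over all experiments (lines) for 15 members, by genotype. For AT3G25790 in Col-0 the 5 values are 2.27, 2.19, 2.75, 4.55 and 0.18, the last from experiment E.

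A separate list of 37 further genes of nitrogen transport and assimilation, 32 of them tested, was counted beside the members. Between low and high Pi with SynCom 7 rose and 6 fell in Col-0, 3 and 4 in phr1, and 4 and 3 in phr1 phl1. These are 40.6%, 21.9% and 21.9% of those tested, against 49.4%, 23.8% and 19.2% of all genes. In Col-0 the cytosolic glutamine synthetase GLN1;3 rose by 0.76 ± 0.12 (adjusted p = 4.4e-08) and the glutamate dehydrogenase GDH1 fell by 1.06 ± 0.17 (adjusted p = 1.15e-07).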

How the data were processed

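Poly(A) RNA of whole seedlings was sequenced in non-stranded libraries, per the labels' protocols. The authors deposited 1 table of raw read counts per gene. The submitters' processing notes name CASAVA 1.8, cutadapt 1.3, TopHat2 2.1.1, HTSeq 0.6.1p1 and TAIR10, without settings. Groups, experiments and replicate numbers come from the sample titles. Counts were tested in R 4.3.3 with edgeR 4.0.16 (TMM scaling, filterByExpr over the 12 groups, quasi-likelihood F test, group plus experiment) over 25 contrasts, with Benjamini-Hochberg adjustment over 18926 genes and a threshold of 0.05. A standard error is the absolute log2 fold over the square root of F. CPM used the TMM-scaled library size and RPKM the exon length in RefSeq TAIR10.1. The fit was tested on simulated data. DESeq2 1.42.0, other scaling, no filter, no experiment term, a replicate block and left-out experiments or libraries were alternatives. Named were up to 10 called members per comparison with the smallest adjusted p, uncalled members of a described role, and members whose sign differed between experiments. The members and lists were chosen with earlier results of these data known. Libraries of the same experiment deviated from their group means together (median correlation 0.506), whereas within an experiment the same replicate number did not pair them (-0.0472, against -0.0562 for different numbers). No 2 libraries of a group agreed within sampling noise (420 pairs, lowest chi-square per degree of freedom 1.916). Whether the 2 libraries of an experiment came from separate plants is not given in the sources used here, so p-values measure the spread between these libraries.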

Additional observations from a re-analysis of the deposited data

Results flagged for a closer look

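Within groups, 13 single-library values of 15 members stood far from the rest of their group by Dixon's gap criterion, of 180 groups looked at. For independent normal values it flags about 1 in 20. The CPM values were not adjusted for experiment, so that rate need not hold here. Of the 13 values, 10 came from experiment E. They were BT1 at 165 CPM (phr1 phl1, low Pi, no bacteria), NIA1 at 192 CPM, NIR1 at 120.0 CPM and RFNR2 at 62.1 CPM (phr1, low Pi, SynCom), and NRT2.1 at 192 CPM (phr1, low Pi, no bacteria). They were also AMT1;2 at 44.5 CPM (phr1, high Pi, no bacteria), AT1G06830 at 10.1 CPM (phr1 phl1, high Pi, SynCom), and NRT2.5 at 5.63 CPM (Col-0, low Pi, SynCom), 1.0 CPM (phr1 phl1, low Pi, no bacteria, from 1 count) and 2.55 CPM (phr1 phl1, high Pi, SynCom). From other experiments came BT2 at 711 CPM (Col-0, high Pi, no bacteria, B), NRT2.1 at 95.5 CPM (Col-0, high Pi, SynCom, B) and NRT1.7 at 87.8 CPM (Col-0, high Pi, no bacteria, A).

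The Pi response with SynCom differed from that of Col-0 by the interaction test for 18 pairs of member and mutant. In phr1 the log2 differences were -2.58 for AT3G25790, -0.75 for RFNR2, 1.22 for BT1, 1.05 for BT2 and -0.98 for GLN1;4. In phr1 phl1 the nitrate uptake and reduction genes NRT2.1, NAR2.1 and NIA1 differed by 1.7, 1.12 and 1.73. Among regulators there, NLP7 differed by 0.44, AT3G25790 by -3.05, LBD37 by 0.7, LBD38 by 0.87, BT1 by 1.72, BT2 by 1.4 and CIPK23 by 0.44. GLN1;2 differed by 0.66, GLN1;4 by -1.22 and AT1G06830 by -1.53. The 5 phr1 calls were each lost without A, B or D (BT1 also without C), RFNR2 at adjusted p 0.0969 to 0.195. In phr1 phl1 the call was lost for NRT2.1, NAR2.1, GLN1;4 and AT1G06830 (0.119) without C or D, and for AT3G25790 without D. It was lost for NLP7 without A, B, C or D (0.0925 to 0.198), for CIPK23 without A, C or D (0.12 to 0.238) and for GLN1;2 without B, C or D (0.056 to 0.553).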

How the results depend on the processing

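Of 205 calls of single members, 54 held under every alternative run. Counts of called members stayed within 1.5 times of those reported under RLE scaling, without the expression filter, without the 4 libraries that stood apart, and with a replicate block, under which low against high Pi with SynCom gave 22, 13 and 15 in Col-0, phr1 and phr1 phl1. Of the 205 calls, the block ended 5, sums per group and experiment 79, experiments C, D and E alone 80, no experiment term 111, and leaving out experiment D 81. Fits without the experiment term gave 13, 6 and 3 for that comparison, 15, 11 and 3 for SynCom at low Pi, 2 (Col-0) and 0 (phr1 phl1) for SynCom at high Pi, 8 and 14 for the mutants against Col-0, 9, 1 and 0 for Pi by SynCom, and 1 and 5 for genotype by Pi. They gave 1 member for Pi without bacteria in phr1, as did DESeq2. Experiments C, D and E alone gave 14 (Pi with SynCom, Col-0), 3 and 1 (SynCom at high Pi, Col-0 and phr1), 5 (phr1 against Col-0), 3, 3 and 1 (Pi by SynCom) and 0 and 4 (genotype by Pi). Counts summed per group and experiment gave 8 (phr1 phl1, Pi with SynCom), 8 (phr1 phl1, SynCom at low Pi), 1 and 0 (Col-0 and phr1 phl1, SynCom at high Pi), 9 and 14 (mutants), 3 and 0 (phr1 and phr1 phl1, Pi by SynCom) and 0 (phr1, genotype by Pi). Leaving out 1 experiment gave 3 to 23 for phr1 phl1 Pi with SynCom, 4 to 13 for its SynCom effect at low Pi, 1 to 5, 1 to 4 and 0 to 5 for SynCom at high Pi, 6 to 21 and 10 to 24 for the mutants, 3 to 7 and 0 to 7 for Pi by SynCom in phr1 and phr1 phl1, and 0 to 12 and 5 to 20 for genotype by Pi. AMT1;1 with SynCom at low Pi in Col-0 had a log2 fold of 0 in experiments C, D and E alone, and NRT2.1 in phr1 phl1 against Col-0 had -0.1 without the experiment term. The cause was not tested. Members at a few counts per library, such as NRT2.5, are limited by depth.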
